A study of Mus musculus and Homo sapiens with 10 samples.

Results

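The Adam and Adamts genes of the mouse encode a family of zinc-dependent proteases and their relatives, and the 58 protein-coding members were placed here against maps of the nuclear lamina in N2A cells. Members were chosen by symbol from RefSeq genes on GRCm38.p6 (mm10): every protein-coding gene named Adam plus a number or with a symbol starting Adamts, 58 of 21523 protein-coding genes on chromosomes 1 to 19 and X. They comprised 22 testis-type Adam genes, 12 other Adam genes, 19 Adamts genes and 5 Adamtsl genes, and lay on 18 chromosomes. The family itself was selected on its LAD placement in the same lists, known from earlier results, so its counts are descriptions and support nothing by themselves.

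The lamina maps came from DamID, in which a chromatin protein is fused to the bacterial methyltransferase Dam so that GATC sites near it become methylated. N2A is a mouse neuroblastoma line. Its 7 samples were LaminB1-Dam by Nanopore (1 sample), LaminB1-Dam by Illumina (2), Dam alone by each method (1 each), a sample with the label 10% LaminB1-Dam by Nanopore (1) and a sample labelled Wildtype (1); the other 3 samples of the series, HEK293T cells with CTCF-DamN126A or DamN126A, were not used. Fusion proteins were induced with doxycycline at 2 µg/mL, so the maps are of cells with an added lamin fusion, and the labels do not say whether a line is a single clone. The values were 2 consensus lists of lamina-associated domains (LADs), 1174 by Nanopore and 1149 by Illumina on chromosomes 1 to 19 and X. The lists give positions with no per-sample values, and the labels do not say which samples entered each. Depth is therefore unknown, no spread between replicates can be given, and all results below are descriptions without a test. The lists hold no expression values, so the identity of the cells could not be checked against markers.

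ADAM proteins are anchored in the cell membrane and combine a metalloprotease domain with a disintegrin domain. Several, such as ADAM10 and ADAM17, cut growth factors, cytokines and Notch receptors from the cell surface, while a large group in rodents is made in testis or epididymis and acts on sperm. ADAMTS proteins are secreted, carry thrombospondin repeats and cut matrix proteins such as aggrecan, versican and procollagen; ADAMTS-like proteins lack the protease domain. LADs are broad stretches of mostly inactive chromatin at the nuclear envelope, and genes of other tissues are often found there.

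The promoters of 4 members are shown first because they carry a contrast described further on: the neighbouring testis-type genes Adam6b and Adam6a and the matrix protease gene Adamts2, all in LADs, and the widely expressed Adam10 outside them. Each is the RefSeq window of GRCm38.p6 from 250 bases before to 50 after the listed start, 5′ to 3′, with CpG dinucleotides in capitals.
Adam6b (chr12:113489315-113489614, plus strand): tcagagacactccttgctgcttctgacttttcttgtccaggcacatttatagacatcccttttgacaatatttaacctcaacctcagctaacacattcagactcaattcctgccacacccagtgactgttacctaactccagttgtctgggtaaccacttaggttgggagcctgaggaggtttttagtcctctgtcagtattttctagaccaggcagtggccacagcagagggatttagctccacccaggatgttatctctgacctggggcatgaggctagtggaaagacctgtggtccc
Adam6a (chr12:113543658-113543957, plus strand): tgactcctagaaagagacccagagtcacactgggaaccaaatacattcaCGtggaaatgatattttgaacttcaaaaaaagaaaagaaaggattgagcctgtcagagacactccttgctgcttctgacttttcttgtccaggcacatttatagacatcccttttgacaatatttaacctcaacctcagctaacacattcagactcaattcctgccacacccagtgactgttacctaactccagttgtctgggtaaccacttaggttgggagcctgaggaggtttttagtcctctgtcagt
Adamts2 (chr11:50601835-50602134, plus strand): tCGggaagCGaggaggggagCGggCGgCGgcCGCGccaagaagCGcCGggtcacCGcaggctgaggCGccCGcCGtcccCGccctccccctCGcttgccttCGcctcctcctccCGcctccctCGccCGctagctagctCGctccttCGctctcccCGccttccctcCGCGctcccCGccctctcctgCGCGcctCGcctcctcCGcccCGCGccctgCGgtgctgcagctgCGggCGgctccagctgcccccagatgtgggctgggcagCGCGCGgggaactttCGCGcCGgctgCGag
Adam10 (chr9:70678732-70679031, plus strand): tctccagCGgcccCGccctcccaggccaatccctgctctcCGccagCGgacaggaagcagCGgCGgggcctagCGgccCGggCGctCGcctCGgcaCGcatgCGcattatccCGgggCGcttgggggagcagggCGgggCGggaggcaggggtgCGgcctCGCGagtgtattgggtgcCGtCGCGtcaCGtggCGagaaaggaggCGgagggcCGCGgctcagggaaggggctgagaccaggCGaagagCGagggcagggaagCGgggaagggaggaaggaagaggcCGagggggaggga
Adam6b held 0 CpG dinucleotides and Adam6a 1, while Adamts2 held 41 and Adam10 held 32. The windows of Adam6b and Adam6a matched at 199 of 199 aligned bases, with the rest of each window outside the alignment. Reads from such near-identical copies may not be placed uniquely, and their treatment by the authors is not stated in the labels.

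A gene was counted as in a LAD when its midpoint lay in one. By this rule Nanopore LADs held 29 of the 58 members and Illumina LADs 28, with 27 shared. Of all protein-coding genes, Nanopore LADs held 28.9% and Illumina LADs 25.4%. The share of members was 50% (95% Wilson interval 37.5 to 62.5%) by Nanopore and 48.3% (35.9 to 60.8%) by Illumina. The family was selected on its placement in these same lists, so a share above that background is no evidence, and the intervals are no test against it. The intervals cover counting error alone and take genes as independent, which neighbours in a LAD are not. A single member was placed in an Illumina LAD only (Adam5), 2 in a Nanopore LAD only (Adam7 and Adamts6) and 28 in neither list. Among all protein-coding genes, 24.7% were in both lists, 0.674% in Illumina LADs only, 4.18% in Nanopore LADs only and 70.4% in neither. With any overlap counted, 31 members touched a Nanopore LAD and 28 an Illumina LAD, against 30.4% and 26.6% of all protein-coding genes. Of the members, 26 were wholly inside 1 Nanopore LAD and 25 inside 1 Illumina LAD, against 26.8% and 23.5%. A Nanopore border crossed 5 members and an Illumina border 3, against 3.63% and 3.15%.

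**Figure D1:**
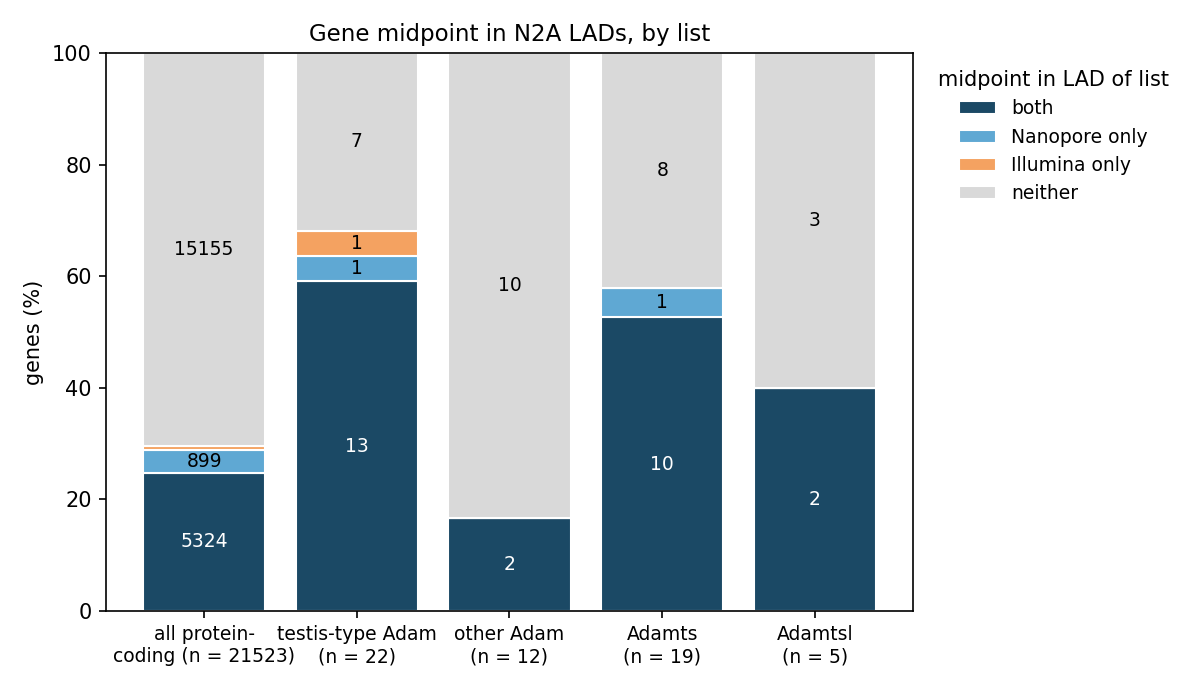
Share of genes (%) whose midpoint lay in LADs of both lists, of Nanopore only, of Illumina only or of neither, for all 21523 protein-coding genes and the 4 classes of members; numbers in the bars are genes. The other Adam genes have 2 of 12 members in LADs, and the testis-type Adam and Adamts genes 13 of 22 and 10 of 19 in both lists.

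For the testis-type Adam genes, each list placed 14 of 22 in LADs (63.6%, Wilson interval 43.0 to 80.3%), 13 of them in both. Other Adam genes had 2 of 12 (16.7%, 4.70 to 44.8%) with each list. Adamts genes had 11 of 19 by Nanopore (57.9%, 36.3 to 76.9%) and 10 of 19 by Illumina (52.6%, 31.7 to 72.7%). Adamtsl genes had 2 of 5 with each list. Set against all 36 members of the other classes together, the testis-type share was 22.0 percentage points higher by Nanopore (95% Newcombe interval -4.26 to 44.1) and 24.7 points higher by Illumina (-1.55 to 46.6). These intervals too cover counting error alone and take neighbouring genes as independent. The classes were also chosen with earlier results of these data known, so the intervals are no test of the classes.

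That difference rested on chromosome 8, which held 13 of the 22 testis-type genes, 11 of them in Nanopore and 12 in Illumina LADs. Across that chromosome Nanopore LADs held 24.1% of 1043 protein-coding genes and Illumina LADs 21.0%. On the other chromosomes the testis-type genes in LADs were 3 of 9 by Nanopore and 2 of 9 by Illumina. Without chromosome 8 the direction turned, and testis-type minus other members came to -7.84 points by Nanopore and -16.0 by Illumina. Runs of neighbouring testis-type or other members (gaps of at most 500 kb) were also counted once each. A run was taken as in a LAD when no more of its members lay outside than inside. The testis-type runs in LADs were then 6 of 10 by Nanopore and 5 of 10 by Illumina, against 14 and 13 of 33 runs of other members. By Nanopore the run of Adam18, Adam3, Adam5 and Adam32 was a tie, so the count of 6 rests on taking ties as inside. Counted so, the difference was 17.6 points by Nanopore and 10.6 by Illumina, the latter down from 24.7.

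The testis-type genes of chromosome 8 lay in 3 runs and a single gene. Adam24, Adam25, Adam20 and Adam39, which encode sperm-lineage ADAMs, sat within 152 kb (40675077 to 40826861). All 4 were wholly inside one narrow LAD, from 40600001 to 40920000 by Nanopore (320 kb) and from 40620001 to 40920000 by Illumina (300 kb). The 4 Adam genes and Slc7a2, an amino acid transporter gene, were the 5 protein-coding genes with a midpoint in it. The listed promoter windows of Adam25 and Adam20 matched at 284 of 296 aligned bases (95.9%), the most identical bases among 55 pairs of testis-type promoters. On either side the neighbours were outside: Zdhhc2, Cnot7 and Vps37a did not overlap a LAD, Mtmr7 had 40.3% of its length in the Nanopore and 17.2% in the Illumina LAD, and Pdgfrl and Mtus1 had none.

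Adam26b, Adam26a, Adam34l and Adam34 sat further along the chromosome (43519864 to 43703424), deep inside a LAD of 3.86 Mb by Nanopore and 3.84 Mb by Illumina. Their midpoints were 1676 to 1816 kb from the nearest Nanopore border and 1656 to 1796 kb from the nearest Illumina border, farther than those of any other member inside a LAD. Adam34 and Gm5347 lie within the span of Adam34l in this annotation, so these 3 are not separate positions. The LAD also held Fat1, Mtnr1a, F11 and Klkb1 among 13 protein-coding genes. Adam29, a testis gene standing alone (55870912 to 55906964), was wholly inside a LAD of 1.18 Mb with the same borders in both lists (55340001 to 56520000).

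The third run held a LAD border. Adam18, Adam3, Adam5, Adam32 and Adam9 follow each other from 24602246 to 25017040; the first 4 are testis genes, Adam3 being needed for sperm to pass into the oviduct, and Adam9 is a widely expressed sheddase. Adam18 and Adam3 were 100% inside LADs of both lists, together with the upstream genes Ido1 and Ido2 of tryptophan breakdown. The LAD ended inside Adam5, at 24760000 by Nanopore and at 24780000 by Illumina, 1 step of the 20 kb grid on which all LAD borders lie. Adam5 thus had 33.8% of its length in the Nanopore LAD and 54.4% in the Illumina LAD. Its midpoint was 15.7 kb outside the Nanopore border and 4.27 kb inside the Illumina border, which is why it counted with a single list. Adam32 and Adam9 did not overlap a LAD, and neither did Tm2d2, Htra4, Plekha2 and Tacc1 beyond them. The 4 neighbouring testis genes were therefore on both sides of the same border, and the widely expressed Adam9 was outside.

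**Figure D2:**
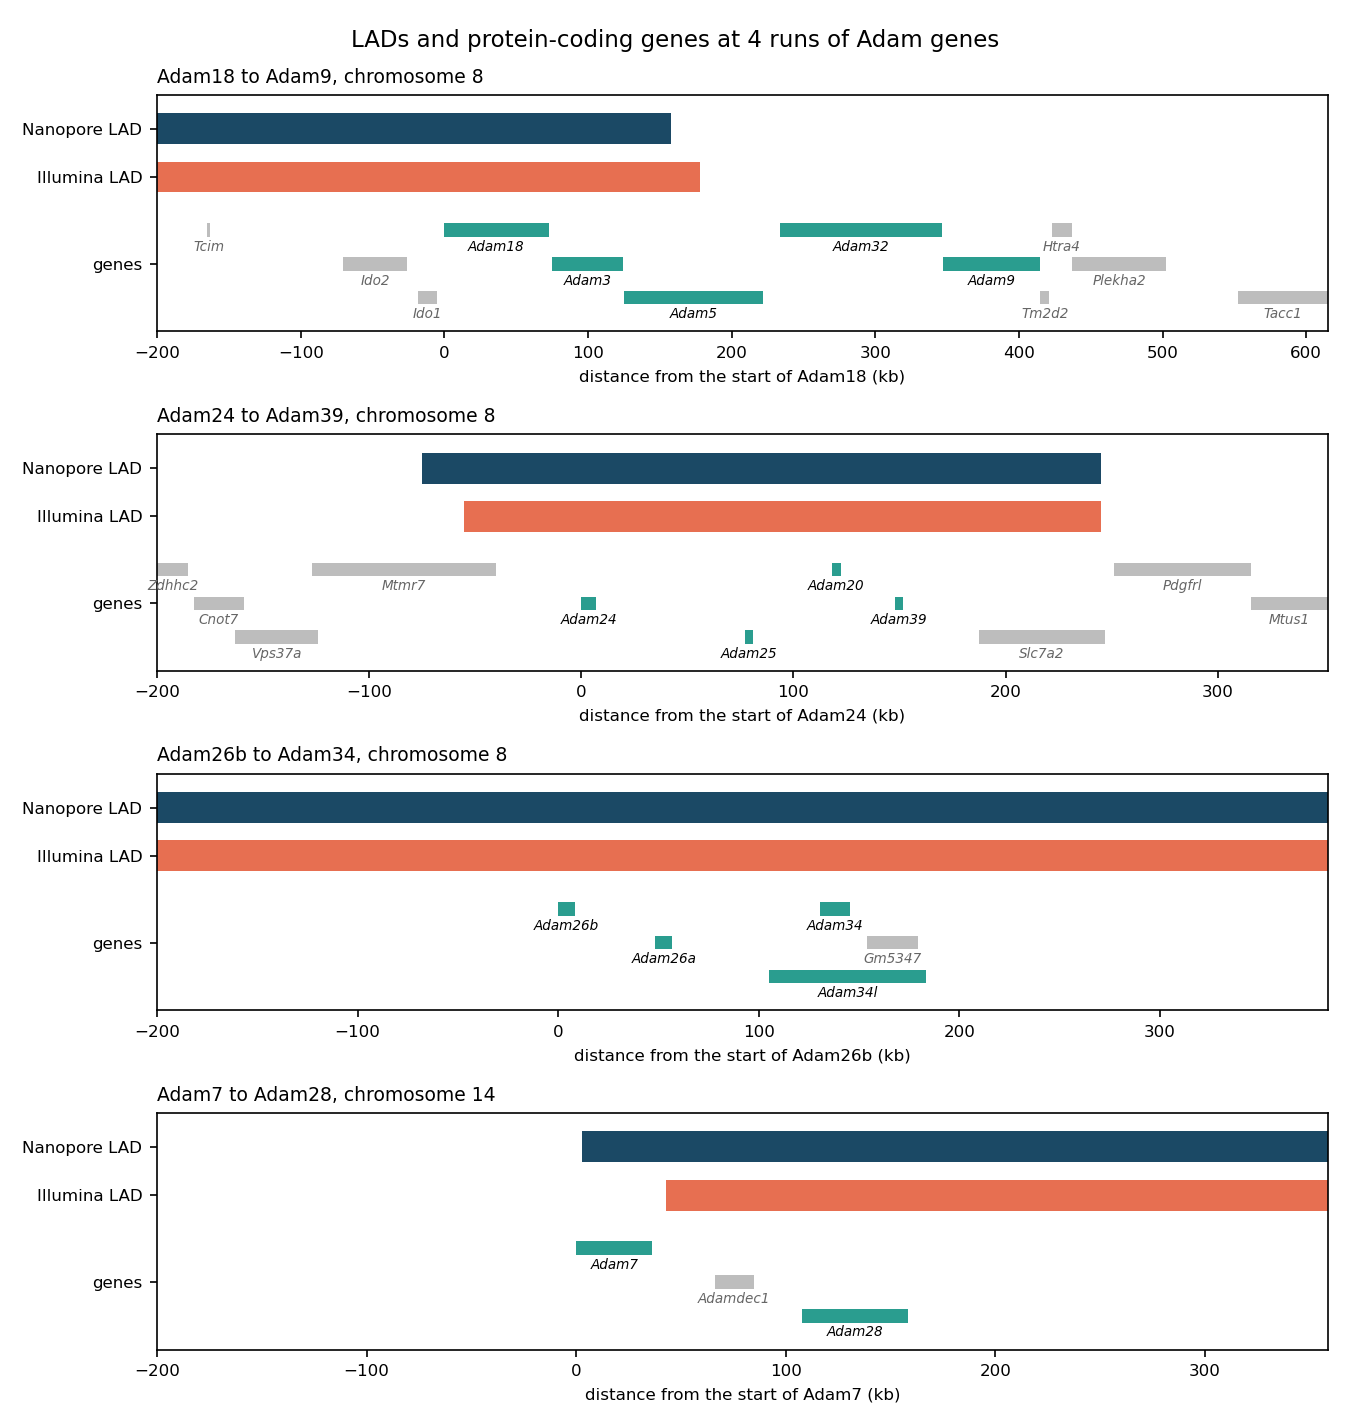
LADs of each list (upper bars) and protein-coding genes (lower bars; members in green, others in grey) at 4 runs of Adam genes, with distance in kb from the start of the first member. The LAD end falls inside Adam5 in the top panel, the LAD is little wider than the 4 genes in the Adam24 panel, and the LAD start falls between Adam7 and Adamdec1 by Illumina and within Adam7 by Nanopore.

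Outside chromosome 8, Adam6b and Adam6a (chromosome 12, 113489565 to 113546414) were wholly inside LADs of 2.94 Mb by Nanopore (113300001 to 116240000) and 2.78 Mb by Illumina (113240001 to 116020000). These sperm genes lie in the immunoglobulin heavy chain locus, which is rearranged in B cells. All 183 listed Ighv segments lay on the far side of Adam6a, and 19 of 21 Ighd segments and the 4 Ighj segments on the near side of Adam6b. The 183 Ighv, 21 Ighd and 4 Ighj segments also had their midpoints in LADs of both lists.

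Adam7, an epididymis gene (chromosome 14, 68497336 to 68533689), had 92.7% of its length in a Nanopore LAD that starts at 68500001 and none in the Illumina LAD that starts at 68540001. Its midpoint was 15.5 kb inside the one and 24.5 kb outside the other. The next genes, Adamdec1, which encodes a secreted ADAM relative outside the symbol rule, and Adam28, which is made in lymphocytes and epididymis, were 100% inside both.

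The remaining 7 testis-type genes, Adam32 included, were in neither list. The fertilin genes Adam1b and Adam1a (chromosome 5, 121500096 to 121521695), whose products form dimers with that of Adam2, were 1442 and 1460 kb from the nearest Nanopore LAD. Adam2 itself (chromosome 14, 66027322 to 66077851) was 347 kb away. Adam4 and Adam21 (chromosome 12, 81419443 to 81568474) were 1099 and 956 kb away, among Cox16, Synj2bp and Med6, and Adam30 (chromosome 3) was 398 kb away. Of these, Adam1b, Adam1a, Adam4, Adam21 and Adam30 were 2.60 to 9.90 kb long, of the same order as Adam24, Adam25, Adam20 and Adam39 (3.85 to 7.12 kb), so short testis genes were found on both sides.

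Among the other Adam genes, Adam22 and Adam28 were in LADs and 10 of 12 were in neither list. The genes outside included the sheddase genes Adam10 (chromosome 9, 70678944 to 70780229; 350 kb from the nearest Nanopore border) and Adam17 (chromosome 12, 21323509 to 21373632; 309 kb). They also included Adam9 and Adam15, the leukocyte gene Adam8, the meltrin genes Adam12 and Adam19, and Adam33. The distances of the 10 genes from the nearest Nanopore LAD ranged from 127 kb for Adam8 to 1909 kb for Adam11. Adam11, Adam22 and Adam23 encode brain proteins that bind LGI partners at synapses and have no protease activity, and these relatives differed in place. Adam23 (150 kb long) was 1819 kb from a Nanopore LAD, whereas Adam22 (chromosome 5, 8072347 to 8368312; 296 kb long) was 100% inside a Nanopore and 97.4% inside an Illumina LAD. Around Adam22 the lists differed in extent: the Nanopore LAD spanned 780 kb (8000001 to 8780000) with 6 protein-coding genes, and the Illumina LAD 300 kb (8080001 to 8380000) with Adam22 alone. In the wider Nanopore LAD, 69.2% of bases were in Illumina LADs, in 2 pieces.

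**Figure D3:**
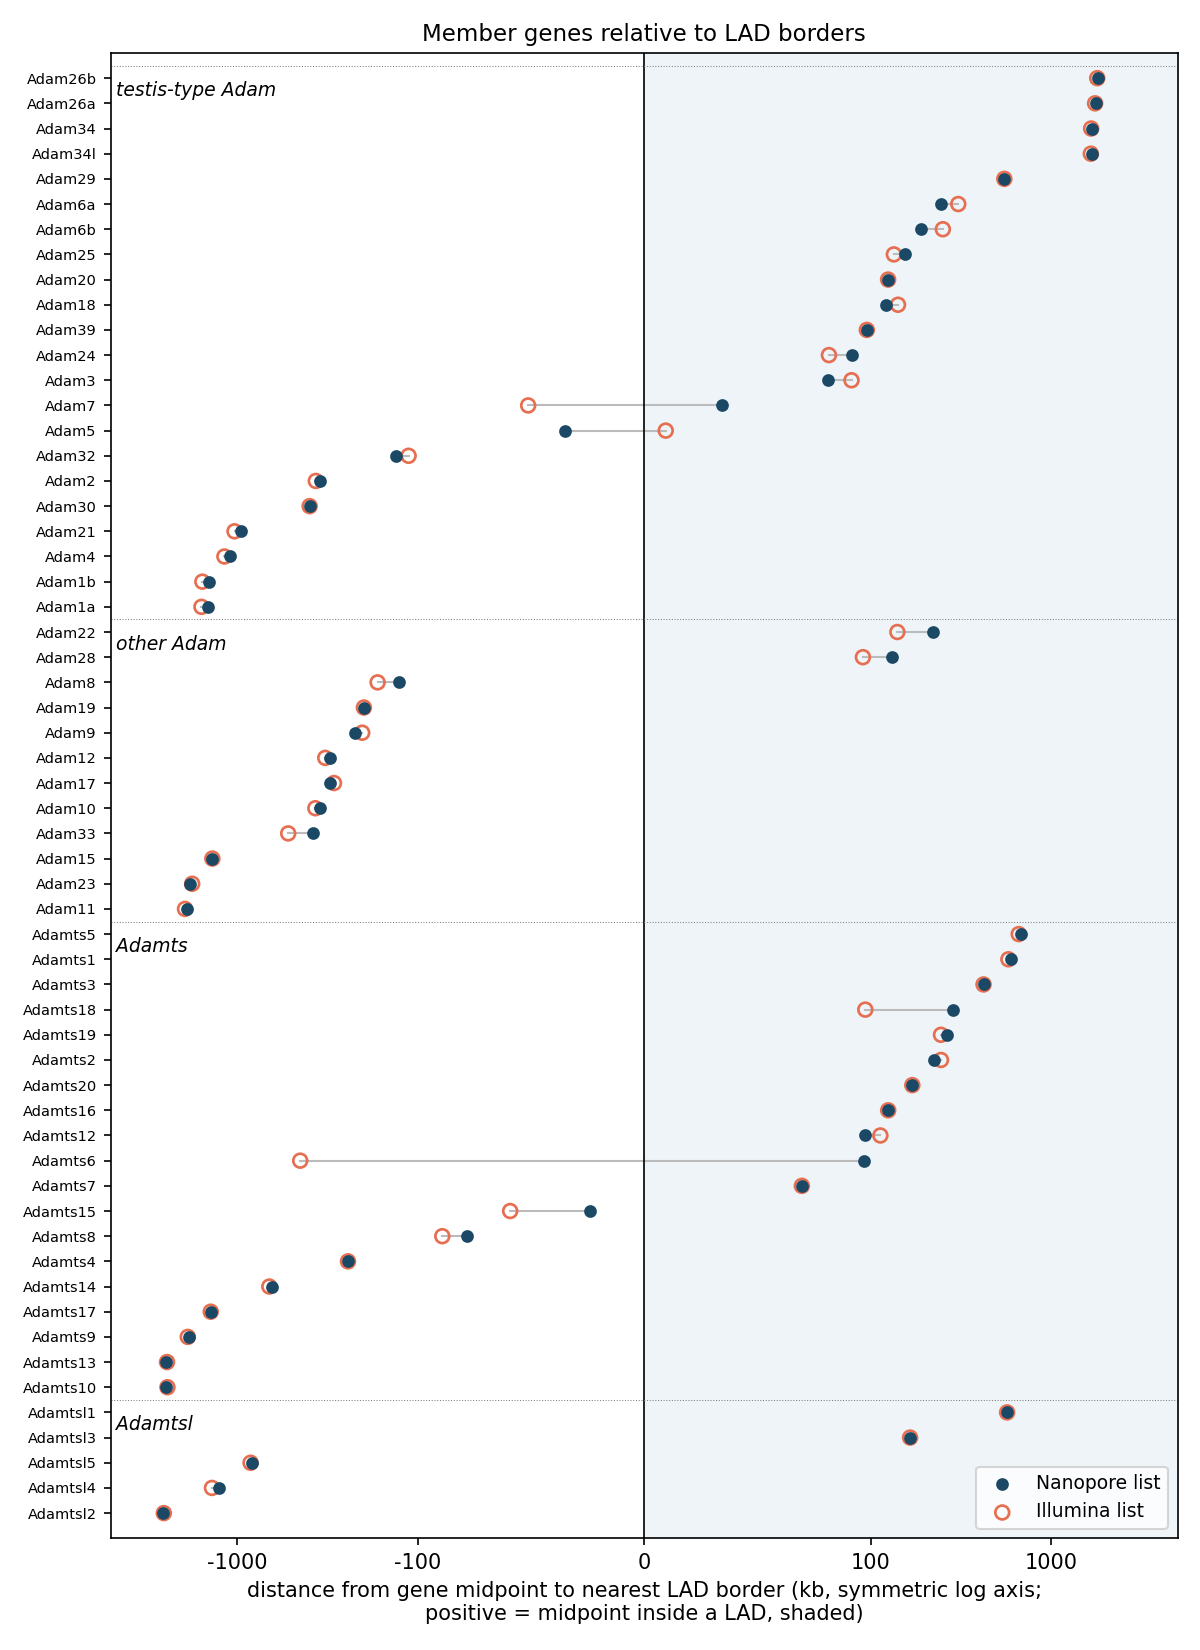
Distance (kb, symmetric log axis) from the midpoint of each of the 58 members to the nearest LAD border, positive and shaded where the midpoint is inside a LAD, for the Nanopore (filled) and Illumina (open) lists; a line joins the values of a gene. The line crosses the border at 0 for Adam7, Adam5 and Adamts6, and the points of the 4 genes of the Adam26b run lie deepest.

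Adamts genes were split within each functional group. Of the 7 genes of the proteoglycan-cleaving group, 3 were in LADs of both lists. Adamts1 and Adamts5, neighbours on chromosome 16 (85793827 to 85901125) that encode aggrecanases, shared a LAD of 2.16 Mb by Nanopore and 2.12 Mb by Illumina, with Cyyr1 as the only other protein-coding gene with its midpoint there. Adamts20 (chromosome 15, 94268314 to 94432074), the gene of the belted coat mutation, was the single protein-coding gene with a midpoint in a LAD of 0.92 Mb with the same borders in both lists. Adamts4, Adamts8, Adamts9 and Adamts15 were in neither list. Adamts15 and Adamts8 lie side by side on chromosome 9 next to a LAD that ends at 30900000 by Nanopore and 30880000 by Illumina. Adamts15 thus had 3.63% of its length in the Nanopore LAD and none in the Illumina LAD.

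Of the 3 procollagen N-propeptidase genes, Adamts2 (chromosome 11, 50602085 to 50807573) and Adamts3 (chromosome 5, 89673841 to 89883668) were wholly inside LADs of both lists. Adamts14 (chromosome 10) was 645 kb from a Nanopore LAD. The LAD of Adamts2 was 0.70 Mb wide with each list and held 14 protein-coding genes, among them zinc finger and olfactory receptor genes. That of Adamts3 was 1.40 Mb wide with the same borders in both lists.

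Of the other 9 Adamts genes, 6 were in Nanopore and 5 in Illumina LADs. Adamts7, which cuts the cartilage protein COMP (chromosome 9, 90162904 to 90200102), was at the edge of the widest LAD that held a member, 5.32 Mb by Nanopore and 5.30 Mb by Illumina, with its midpoint 41.5 kb from the shared border at 90140001. Adamts12, another COMP-cleaving protease gene (chromosome 15, 11064773 to 11349232), overlapped a LAD that held no other protein-coding midpoint, with 82.7% of its length inside by Nanopore (240 kb LAD) and 89.7% by Illumina (260 kb LAD). Adamts16 and Adamts19 were wholly inside LADs of both lists, 2.60 and 1.78 Mb wide by Nanopore. Adamts18 (chromosome 8, 113697123 to 113849343) was wholly inside both as well. There the Nanopore LAD spanned 2.00 Mb (112060001 to 114060000), and Illumina LADs covered 92.0% of it in 2 pieces, the piece with Adamts18 being 300 kb wide.

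Adamts6 (chromosome 13, 104286518 to 104496695) showed the largest disagreement among the members. By Nanopore, 93.6% of its length lay in a LAD of 200 kb (104300001 to 104500000) that held no other protein-coding midpoint, and no Illumina LAD overlapped that interval. The nearest Illumina LAD started at 104840001, 448 kb from the midpoint of the gene. Adamts10, which acts on fibrillin, Adamts13, the protease of von Willebrand factor made in liver, and Adamts17 were in neither list and 1396 to 2499 kb from a Nanopore LAD.

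Among the Adamtsl genes, Adamtsl1 (chromosome 4, 85513852 to 86428390), at 915 kb the longest of the 58 members, and Adamtsl3 (chromosome 7, 82335399 to 82614450), 279 kb long, were wholly inside LADs of both lists. Adamtsl2, Adamtsl4 and Adamtsl5, 9.24 to 29.6 kb long, were in neither.

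Genes of 100 kb or more were 8 of the 11 Adamts genes and both Adamtsl genes in Nanopore LADs, while the 12 other Adam genes had a single gene in LADs on each side of 100 kb. Leaving out the testis-type genes, members of 100 kb or more in LADs numbered 11 of 16 by Nanopore and 10 of 16 by Illumina, against 4 of 20 shorter ones with each list. Over all protein-coding genes, 41.3% of those of 100 kb or more and 27.3% of shorter ones were in Nanopore LADs; by Illumina the shares were 36.0% and 24.1%. Adamts genes of 100 kb or more had 8 of 10 in Nanopore and 7 of 10 in Illumina LADs, and shorter Adamts genes 3 of 9 with each. The limit does not divide the testis-type genes, of which 21 of 22 were shorter and only Adam32, in neither list, was longer. The median length was 8.27 kb for the 13 testis-type genes in both lists and 3.54 kb for the 7 in neither. It was 158 kb for the 10 Adamts genes in both lists and 33.2 kb for the 8 in neither. Over all protein-coding genes the medians went the other way, with 11.2 kb for the 5324 in both lists and 18.7 kb for the 15155 in neither. The shares at 100 kb or more given above went the same way for all genes as for the members other than testis-type. The 100 kb limit was chosen after the data were seen.

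**Figure D4:**
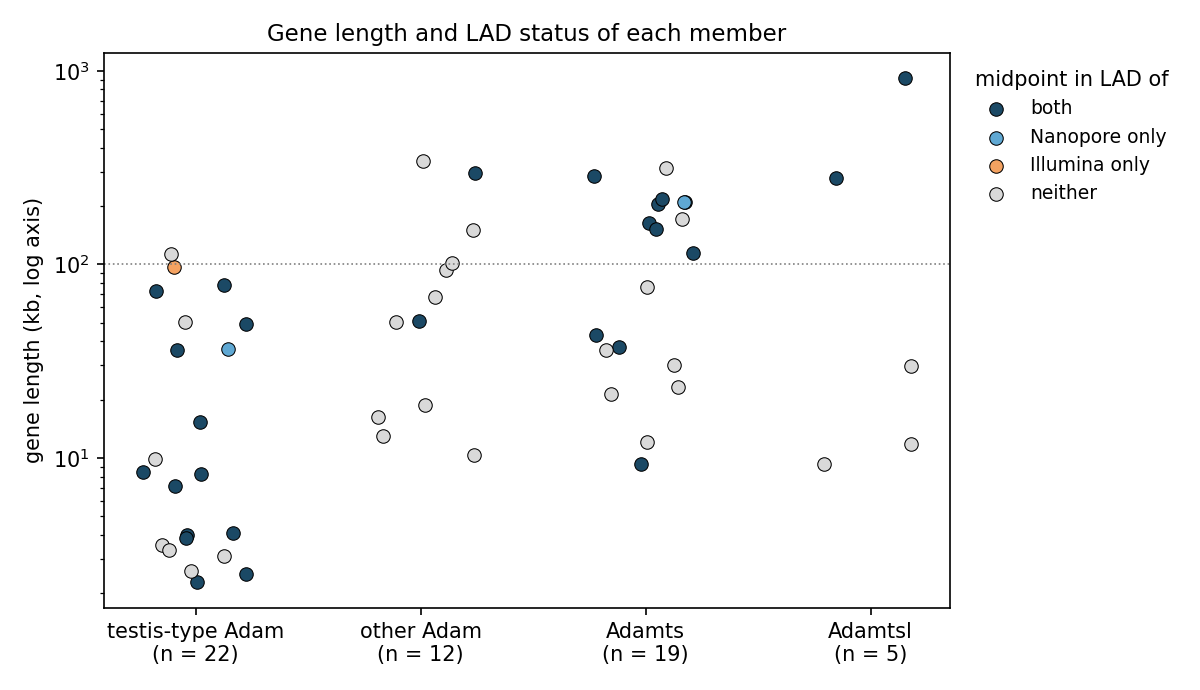
Gene length (kb, log axis) of the 58 members by class, coloured by the LAD list that holds the midpoint; the dotted line is at 100 kb and points are spread sideways for legibility. Testis-type genes in both lists lie below the line, and 7 of the 10 Adamts genes in both lists lie above it.

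By median, members in LADs had fewer protein-coding genes around them than members in neither list. Within 500 kb of the midpoint on each side, the 27 members in both lists had a median of 6 other protein-coding genes and the 28 in neither list 13.5. Over all protein-coding genes the medians were 12 in both lists and 17 in neither. For the testis-type genes the medians were 9 and 13, and for the Adamts genes 3 and 11. Single members departed from this. In both lists, Adamts2 had 21 such genes, Adam24 had 12, and Adam25, Adam20 and Adam39 had 13 each. Adamts9, in neither list, had 1. LADs that held members were about as wide as those that held protein-coding genes in general, with a median over genes of 1.40 Mb for members and 1.56 Mb for all genes in Nanopore LADs, and 1.45 and 1.40 Mb in Illumina LADs.

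Among the members with a listed promoter, CpG counts were low in testis-type genes and ranged from 2 to 46 in the other classes. RefSeq promoter windows were listed for 32 of the 58, 11 of them testis-type. In 26 of these 32 the listed start lay less than 300 bases inside the gene's outer end; for Adamts20 it lay 27724 bases inside, so that window belongs to an inner start. In all 32 the listed start fell on the same side of the LAD call as the midpoint, with both lists. No window was listed for Adam5, Adam7, Adamts6 or Adamts15, each crossed by a Nanopore border, so these could not be compared. The 11 testis-type windows held 0 to 4 CpG dinucleotides: 0 or 1 in the 8 in both lists, and 0, 2 and 4 for Adam21, Adam1b and Adam1a in neither. The 7 other Adam windows had a median of 25 and the 10 Adamts windows one of 23.5. Over all protein-coding genes the median was 3 in both lists and 18 in neither.

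Of the 14 members of other classes in LADs of both lists, 8 had a listed window, and Adam28, Adamts5, Adamts7, Adamts16, Adamts19 and Adamtsl1 had none. Among the 8, Adamts2, Adamts20 and Adamts3 held 41 each, Adamtsl3 held 46, Adamts18 held 22, Adam22 held 19 and Adamts1 held 18, while Adamts12 held 7. Thus 7 of these 8 held 18 or more, a limit set after the data were seen at the median of genes in neither list. The 7 include the inner-start window of Adamts20, and Adamts1, which lies exactly at the limit. Among all protein-coding genes in both lists, 13.6% of 4310 windows did so, and in neither list 51.8% of 12132. Of the 13 such members in neither list, 8 held 18 or more. The GATC site at which Dam methylates was present on the printed strand, and so on both strands since it reads the same, in 13 of the 32 windows (40.6%) and in 46.3% of 17274 windows of all protein-coding genes. It was absent from the 4 windows printed above, which says nothing of the sites around them.

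**Figure D5:**
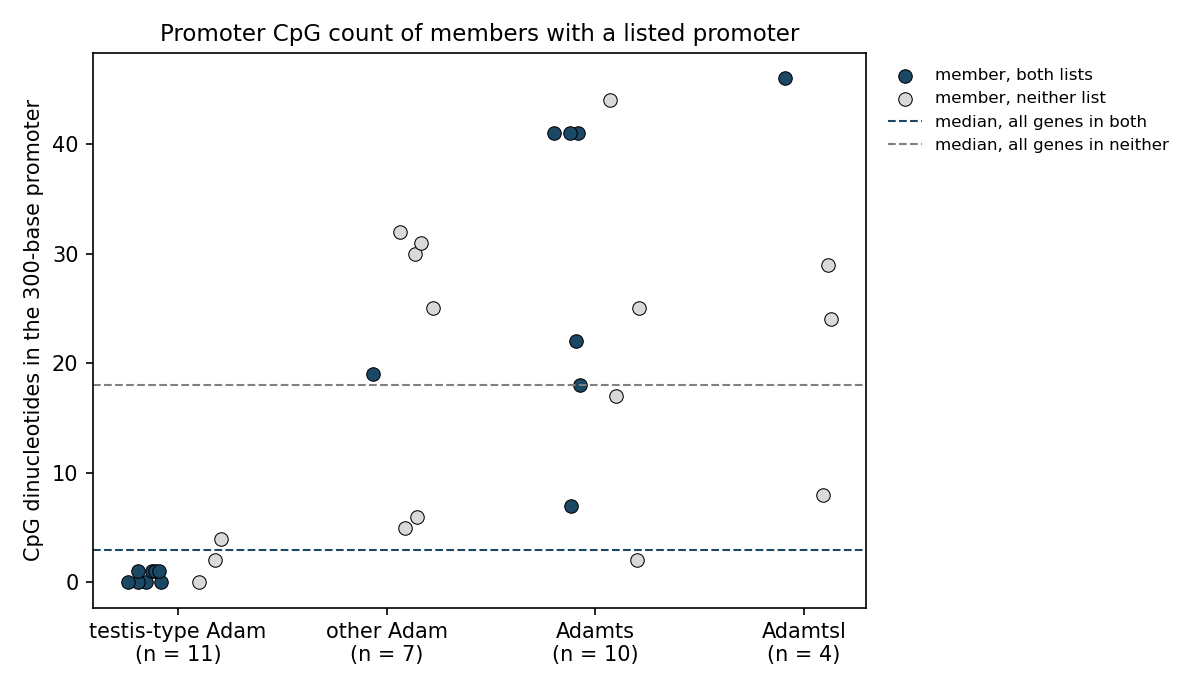
Number of CpG dinucleotides in the 300-base promoter window of the 32 members with a listed promoter, by class and by LAD status of the midpoint; dashed lines are the medians of all protein-coding genes in both lists (3) and in neither (18). Testis-type windows lie at 0 to 4 in either status, and Adamts windows in LADs reach 41.

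Genes that act with these proteases were placed in the same way. Of 15 inhibitors and trafficking partners, 3 were in Nanopore and 4 in Illumina LADs: A2m, Timp3 and Tspan5 in both and Tspan14, which helps ADAM10 to the cell surface, by Illumina only. Frmd8, Reck, the iRhom genes Rhbdf1 and Rhbdf2, Timp1 and Timp2 were among the 11 in neither. Of 14 matrix substrates, 3 and 2 were in LADs, with the versican gene Vcan and Col3a1 in both and the decorin gene Dcn by Nanopore only. Of 20 substrates shed from the membrane, 5 and 4 were in LADs. Areg, Btc and Ereg, EGF family ligands on chromosome 5, and Nrg1 were in both, Egf was in Nanopore LADs only, and App and the cadherin genes Cdh1 and Cdh2 were in neither. Of 18 sperm surface, chaperone and fertilization genes, 15 matched a symbol in the annotation and 5 were in LADs of each list. Ly6k, Pdilt, Prss37 and Spaca6 were in both, Clgn by Nanopore only and Izumo1r by Illumina only. The shares of these 4 lists, 20 to 33.3% by Nanopore and 14.3 to 33.3% by Illumina, stood beside a background of 28.9% and 25.4%. The lowest was that of the matrix substrates by Illumina, at 14.3%. The highest was that of the sperm and fertilization genes, at 33.3% with each list.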

How the data were processed

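The 2 LAD lists that the authors deposited hold interval positions (chromosome, start and end, in bases, with no score, read count or p-value), a unit outside the usual ones, and the deposited human CTCF list was not used. Per the labels' protocols, Nanopore libraries started from 2.5 µg of genomic DNA cut with DpnI at methylated GATC sites, while Illumina libraries used an earlier published DamID method. Tools named per the submitters' processing notes, with no role, are bedtools, deepTools, minimap2 and SAMtools, and the builds hg38 and mm10. No label names the caller or the samples behind either list. Borders lie on a 20 kb grid in 100% of cases, which limits the precision of each distance.

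Of 21900 protein-coding genes in the RefSeq table (GRCm38.p6), 21631 lie on chromosomes 1 to 19 and X, and 108 listed below 3 Mb, where placed sequence starts, were left out. Genes were placed by midpoint. Members may all be named. Pathway genes were named at most 6 per list and status in alphabetical order. Members, classes and lists were chosen with earlier results of these data known; classes rest on textbook knowledge of expression. Promoter windows were aligned globally with free end gaps. Placement rules were tested on simulated data. Alternatives changed the placement of genes, the LADs used and the classes. The planned protein features were not analysed here. Work was done in Python 3.11.15 with biopython 1.88, matplotlib 3.10.9, scipy 1.17.1, pandas 2.3.3 and numpy 2.4.6.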

Additional observations from a re-analysis of the deposited data

How the results depend on the processing

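Of 112 values recomputed under 9 alternatives, 100 stayed within 1.5 times the reported count or within the interval of the reported difference. Leaving out chromosome 8, chosen after the data were seen, lowered the testis-type genes in LADs to 3 of 9 by Nanopore and 2 of 9 by Illumina. All members in LADs came to 17 of 43 (39.5%) and 15 of 43 (34.9%), and those in both lists to 15. The set is smaller here, so lower counts are partly due to fewer members. Over all protein-coding genes, chromosome 8 included, the shares were 28.9% and 25.4%. Leaving out that chromosome also left 0 members in Illumina LADs only, and turned the testis-type difference to -7.84 points by Nanopore and -16.0 by Illumina. With any overlap counted, 0 members were in Illumina LADs only. With the whole gene required in 1 LAD, 0 were in Illumina LADs only, 1 in Nanopore LADs only, and 1 other Adam gene was in an Illumina LAD. LADs under 100 kb left out, LADs up to 40 kb apart merged, transcription starts, Adam7 moved to the other Adam genes and Adamtsl genes left out moved no value past these limits. Several of these could change little or nothing, so the 100 values are no measure of robustness. The narrowest LAD with a member's midpoint was 0.2 Mb wide, above the 100 kb limit. Promoter windows were listed for 32 of the 58 members, and leaving out Adamtsl genes cannot alter the counts of the other classes. The interval is a wide limit for the difference. With runs counted once the difference fell from 24.7 to 10.6 points by Illumina, more than 1.5 times. By Nanopore it fell from 22.0 to 17.6 points, with the tied run of Adam18 to Adam32 taken as inside. Both values still lay within the interval. No paired analysis was possible because the lists carry no per-sample values and no result comes from a test, and for the same reason no replicate could be left out. Depth is unknown, so how firmly a border is placed cannot be given.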

Other observations

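Relatives outside the symbol rule were placed too. Gm4787, listed with the synonym Adam4b, lies beside Adam4 on chromosome 12 and was in neither list, and Thsd4, listed with the synonym ADAMTSL6, was in neither list at a length of 555 kb. Matrix metalloproteinase genes are another family of zinc-dependent proteases that cut matrix. They had 12 of 23 members in LADs of both lists and 11 in neither, beside 24.7% and 70.4% of all protein-coding genes. Of these 12, 10 lie on chromosome 9, among them Mmp10, Mmp12, Mmp13, Mmp1a and Mmp1b, so this share rests on a single chromosome, as does the testis-type Adam share on chromosome 8.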
